A study of Arabidopsis thaliana with 6 samples.

Results

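The quadruple mutant pifq, homozygous for mutations in PIF1, PIF3, PIF4 and PIF5, was compared with the wild type Col after growth in darkness. The comparison used 4 of the 6 RNA-seq libraries of the series, 2 of pifq and 2 of Col. It took in every gene with a deposited value of at least 10 in at least 2 of these 4 libraries, which left 20218 of the 24439 genes listed. The study concerns PP6 phosphatases and PIF proteins in seedlings of Arabidopsis thaliana grown without light, and its other genotype, f1f3, homozygous for fypp1 and fypp3, entered here only through the shared estimate of the spread. The pifq plants carry a genotype label that names all 4 pif mutations as homozygous with misspelt symbols, read here as pif1, pif3, pif4 and pif5, and the Col plants are labelled wild type. Both groups were stratified for 3 days at 4 °C in darkness, given 12 h of white light, and kept for 4 days in the dark at 22 °C. Total RNA came from ground whole seedlings, and the labels speak of 2 biological replicates of each genotype.

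PIFs are basic helix-loop-helix (bHLH) transcription factors that bind G-box DNA and related sequences. In darkness they accumulate and keep the seedling in its dark form, with a long hypocotyl, a closed apical hook, folded cotyledons and undeveloped chloroplasts. Light-activated phytochrome binds them and leads to their breakdown, and a seedling without these 4 factors is known for taking on features of light-grown plants while still in the dark.

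The pifq libraries held 27.7 and 19.4 M recovered reads, and the Col libraries 17.9 and 23.8 M. A value below is a deposited value, that is reads of a gene scaled by a factor of its library, given for replicate 1 and then replicate 2. A gene is said to have risen or fallen in pifq where its Benjamini-Hochberg adjusted p was below 0.05 in the limma fit across all tested genes. By this rule 744 genes rose (3.68% of those tested) and 593 fell (2.93%), and in none of these 1337 (6.61%) did the pifq and Col libraries overlap, while 54.9% of all tested genes showed no such overlap. The median log2 fold change of all tested genes was -0.01. Rises of at least 2-fold numbered 567 and falls 481, and at least 4-fold 144 and 169. Fits that left out 1 library at a time gave far fewer calls, counted here whether or not the reported fit made the same call. Without pifq replicate 1, 157 genes rose and 213 fell, and without pifq replicate 2 the counts were 257 and 315. Without Col replicate 1 there were 218 rises and 184 falls, and without Col replicate 2 there were 208 and 228. In all 4 of these fits 91 genes rose and 145 fell, and the genes given with full statistics below come from these unless a lost call is stated. For gene lists, the counts of these fits are given in the order pifq replicate 1 (pifq 1), pifq replicate 2 (pifq 2), Col replicate 1 (Col 1) and Col replicate 2 (Col 2) left out. DESeq2 called 1363 rises and 1081 falls.

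Seed transcripts stood apart in 1 library. The 17 seed storage and late embryogenesis genes took 0.0976% and 0.000232% of the reads of the pifq libraries, against 0.00107% and 0.00026% of those of the Col libraries. CRA1, a cruciferin storage protein, stood at 8056 and 10.2 in pifq, against 51.4 and 1.8 in Col, and CRU3 at 10170.1 and 6.8 in pifq, against 37.3 and 1.8 in Col. Replicate 1 of pifq was the high library in both, and replicate 2 of pifq lay between the Col libraries. Without pifq replicate 1 the log2 fold change was -0.11 for CRA1 and -0.41 for CRU3, against 4.63 and 4.77 with it. The median of the tested seed genes was -0.46 without it and 2.1 with it. Only 6 of the 17 genes passed the filter on low values, limma called 0 of them and 0 had an unadjusted p below 0.05, while edgeR called 0 and DESeq2 2, and 3 rose when pifq replicate 2 was left out. The part of these transcripts in the results below was not tested. In whole seedlings, fewer cells of a type and less RNA per cell cannot be told apart.

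**Figure D1:**
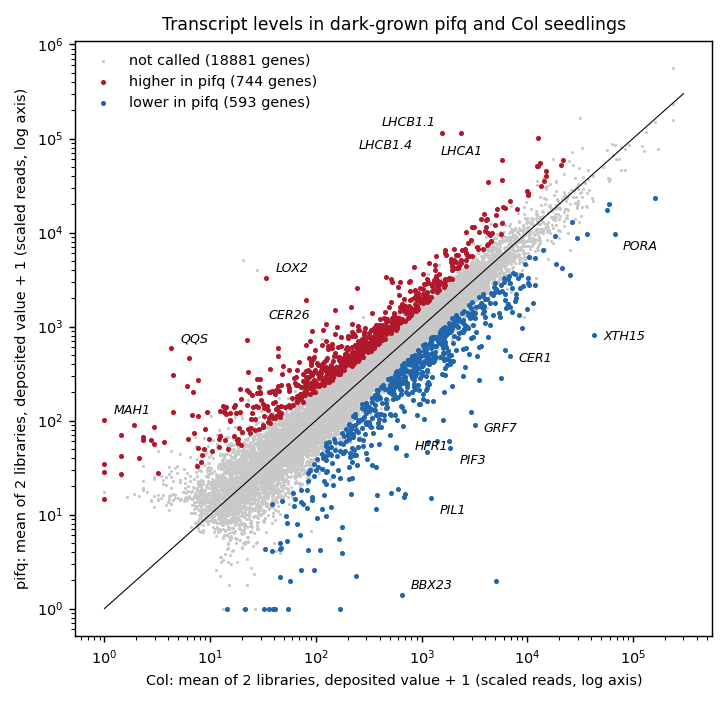
Each point is 1 of the 20218 tested genes, with the mean of the Col libraries on the horizontal axis and the mean of the pifq libraries on the vertical axis, both as deposited value plus 1 on log axes. The 744 genes that rose in pifq lie above the diagonal and the 593 that fell lie below it, and genes on the left or lower border had no or next to no reads in 1 genotype.

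The 6 printed promoters belong to named genes that changed in all 4 left-out fits, 3 that fell and 3 that rose. They had the smallest adjusted p among genes with CACGTG or CACATG in the 250 bases before the annotated gene start and no other gene annotated there. CACGTG is the G-box and CACATG is known as a PIF-binding E-box variant. RD20, a caleosin of lipid bodies and drought response, stood at 11.2 and 20.4 in pifq, against 458 and 561 in Col (limma log2 fold change -4.97 with SE 0.31, adjusted p = 0.000199). ELIP1, an early light-induced protein, had 3 reads in pifq and 502 in Col, a ratio of Col over pifq of 186 (exact 95% interval 63.2 to 904, counting error only). ACS5, an enzyme that makes the ethylene precursor, had values of 145 and 81.7 in pifq, against 987 and 831 in Col (limma log2 fold change -3.04 with SE 0.32, adjusted p = 0.00256). All 3 were low in both pifq libraries. LOX2, a lipoxygenase of jasmonate synthesis, measured 3500.0 and 3095 in pifq, against 14.1 and 51.6 in Col (limma log2 fold change 6.87 with SE 0.50, adjusted p = 0.000472). EXPA10, an expansin that loosens cell walls, stood at 1251 and 1536 in pifq, against 339 and 345 in Col (limma log2 fold change 2.02 with SE 0.17, adjusted p = 0.00107). MAH1, a hydroxylase of cuticular alkanes, had 213 reads in pifq and 0 in Col, at least 63.9-fold higher against a floor of 3 reads over the group. These 3 were high in both pifq libraries and, like every called gene, did not overlap with Col. The sequences follow 5′ to 3′ on the strand of the gene, from RefSeq TAIR10.1, with the motif or its reverse complement in capitals. Those of RD20 (chr2:14146556-14146805, minus strand) and ELIP1 (chr3:8085670-8085919, minus strand) hold CACGTG, ending 62 and 60 bases before the start. Those of ACS5 (chr5:26332813-26333062, minus strand) and LOX2 (chr3:16524995-16525244, plus strand) hold CACATG, 163 and 91 bases before it. That of EXPA10 (chr1:9259182-9259431, plus strand) holds overlapping copies of CACATG on both strands, 123 and 125 bases before it, and that of MAH1 (chr1:21385710-21385959, minus strand) holds CACATG on the opposite strand, 187 bases before it.
RD20: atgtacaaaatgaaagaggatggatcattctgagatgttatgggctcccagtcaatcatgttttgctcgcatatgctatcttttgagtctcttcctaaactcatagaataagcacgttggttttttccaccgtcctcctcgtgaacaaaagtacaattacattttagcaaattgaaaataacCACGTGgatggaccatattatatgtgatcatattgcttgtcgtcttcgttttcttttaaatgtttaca
ELIP1: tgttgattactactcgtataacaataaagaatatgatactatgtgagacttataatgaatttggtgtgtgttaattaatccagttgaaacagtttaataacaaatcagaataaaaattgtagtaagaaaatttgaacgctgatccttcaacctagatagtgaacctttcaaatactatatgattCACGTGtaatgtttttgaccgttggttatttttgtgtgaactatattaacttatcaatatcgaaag
ACS5: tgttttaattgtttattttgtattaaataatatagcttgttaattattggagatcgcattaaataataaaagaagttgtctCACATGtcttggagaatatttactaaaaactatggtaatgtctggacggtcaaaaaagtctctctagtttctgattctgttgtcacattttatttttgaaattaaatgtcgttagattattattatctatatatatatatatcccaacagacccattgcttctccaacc
LOX2: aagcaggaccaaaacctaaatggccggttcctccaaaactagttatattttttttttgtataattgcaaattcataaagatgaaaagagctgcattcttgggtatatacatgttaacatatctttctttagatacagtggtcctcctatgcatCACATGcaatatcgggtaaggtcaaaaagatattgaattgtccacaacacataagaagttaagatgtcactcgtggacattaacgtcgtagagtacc
EXPA10: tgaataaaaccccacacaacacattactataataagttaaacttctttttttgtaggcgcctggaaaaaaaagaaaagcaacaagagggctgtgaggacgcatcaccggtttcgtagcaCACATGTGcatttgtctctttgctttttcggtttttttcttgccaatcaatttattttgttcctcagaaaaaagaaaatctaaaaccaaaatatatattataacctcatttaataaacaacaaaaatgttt
MAH1: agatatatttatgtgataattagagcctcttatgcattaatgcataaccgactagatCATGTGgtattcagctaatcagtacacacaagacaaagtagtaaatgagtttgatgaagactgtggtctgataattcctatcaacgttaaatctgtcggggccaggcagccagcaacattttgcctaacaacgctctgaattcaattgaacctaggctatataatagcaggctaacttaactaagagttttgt

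The same 250 bases were searched on both strands before all 20035 tested genes with a window. CACGTG stood before 60 of 742 genes that rose (8.09%) and 65 of 593 that fell (11%), against 7.27% of all tested genes. CACATG stood before 74 rising genes (9.97%) and 97 falling genes (16.4%), against 11.1% of all. For falls of at least 4-fold the CACGTG share was 13%, and for rises of that size 5.59%. The CACATG shares of the same sets were 14.2% and 11.9%, closer together than for all falls and rises. Among genes called in all 4 left-out fits, CACATG stood before 15.2% of falls and 14.3% of rises, and CACGTG before 10.3% and 3.3%. Within 100 bases of the start the CACGTG shares were 4.18% of rising, 6.41% of falling and 4.21% of all genes, and the CACATG shares 3.77%, 7.93% and 4.44%. Of the other motifs, searched in the same way, GATAAG stood before 14.3% of rising, 13.5% of falling and 12.3% of all genes. The telo-box AAACCCTAA stood before 2.43%, 0.843% and 2.07%, and the evening element AAAATATCT before 2.16%, 3.37% and 2.43%. Families differed in these letters, with CACATG before 26 of 63 SAUR genes and CACGTG before 1. CACGTG stood before 8 of 25 clock genes and 0 of 28 XTH genes. Where many genes rose, it stood before 5 of 21 antenna (23.8%), 4 of 12 photosystem II (33.3%) and 2 of 12 photosystem I genes (16.7%). It also stood before 5 of 32 chlorophyll and tetrapyrrole genes (15.6%). Of other lists with many rises, it stood before 1 of 20 stomatal, 2 of 29 glucosinolate and 0 of 47 cuticle genes. No test was made of these shares, and a match is a description of letters, not of binding.

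Of the 4 mutated genes, 2 had reduced transcripts. PIF3 was at 62.3 and 37.5 in pifq, against 1776 and 1959.5 in Col (limma log2 fold change -5.24 with SE 0.24, adjusted p = 4.85e-05). PIF5 stood at 87.8 and 139.6 in pifq, against 470.3 and 659.9 in Col (log2 fold change -2.32, adjusted p = 0.00952), with adjusted p of 0.0569 leaving out pifq replicate 1 and 0.0512 leaving out Col replicate 2. PIF1 stood at 1159.5 and 1218 in pifq, against 889 and 842 in Col, and PIF4 at 679.5 and 1034 in pifq, against 477 and 427 in Col, with limma adjusted p of 0.123 and 0.0803. Transcripts of PIF1 and PIF4 were thus present in pifq at values above those of both Col libraries without passing the limma test. DESeq2 called PIF4 higher (adjusted p = 0.0185). A transcript does not show whether a mutant allele yields a protein, and where the mutations lie relative to the counted reads was not analysed here.

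Other genes of the PIF clade changed in both directions, with 50% of the list falling and 16.7% rising, against 2.93% and 3.68% of all genes. Of 6 tested, 3 fell and 1 rose, and in the left-out fits the falls numbered 2, 2, 1 and 1 (leaving out pifq 1, pifq 2, Col 1 and Col 2). PIL1, a PIF-like factor strongly induced by shade, had values of 14.4 and 13.6 in pifq, against 1256 and 1199 in Col (limma log2 fold change -6.36 with SE 0.19, adjusted p = 9.89e-06). PIF7, a shade factor, was the one that rose, at 101 and 185 in pifq, against 12.9 and 11.4 in Col (log2 fold change 3.39, adjusted p = 0.0111, and 0.0739 leaving out pifq replicate 2). SPT, known from carpel growth and germination, measured 569 and 463 in pifq, against 1118 and 1109 in Col (adjusted p = 0.0109, and 0.0555 leaving out pifq replicate 2, 0.0647 leaving out Col replicate 1 and 0.0607 leaving out Col replicate 2). PIL1 was thus almost lost in both pifq libraries, whereas PIF7 was several-fold higher in both. PIF6 fell by 1.39 on the log2 scale (adjusted p = 0.0317, and 0.138 leaving out pifq replicate 1, 0.114 leaving out Col replicate 1 and 0.129 leaving out Col replicate 2).

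Transcripts of several small HLH proteins, which pair with PIFs or with growth-promoting bHLH factors, fell as well. Of 14 tested, 6 fell and 8 did not pass (42.9%, against 2.93% of all genes), and 3, 4, 3 and 3 (leaving out pifq 1, pifq 2, Col 1 and Col 2) fell in the left-out fits. HFR1, which binds PIFs and keeps them from DNA, stood at 43.1 and 40.9 in pifq, against 667 and 746 in Col (limma log2 fold change -4.04 with SE 0.21, adjusted p = 8.23e-05). IBH1, an inhibitor of cell elongation, was at 136 and 97.6 in pifq, against 586 and 414 in Col (limma log2 fold change -2.08 with SE 0.27, adjusted p = 0.00596). PAR2, another shade-induced antagonist, stood at 171 and 163 in pifq, against 529.5 and 548 in Col (limma log2 fold change -1.68 with SE 0.22, adjusted p = 0.00633). Both pifq libraries lay far below both Col libraries for all 3. PAR1 fell by 1.67 (adjusted p = 0.0162), a call lost in all 4 left-out fits, at 0.0844 leaving out pifq replicate 1, 0.0641 leaving out pifq replicate 2, 0.0819 leaving out Col replicate 1 and 0.0552 leaving out Col replicate 2. Among 9 HD-ZIP II genes, homeodomain factors of the shade response, HB-2 alone fell (11.1% of the list), also in each left-out fit, at 268 and 220.2 in pifq, against 1329 and 1015 in Col (limma log2 fold change -2.25 with SE 0.22, adjusted p = 0.00183).

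B-box zinc finger genes, whose products work beside HY5 and COP1 in light signalling, moved both ways. Their list had 16.7% rises and 20.8% falls, against 3.68% and 2.93% of all genes. Of 24 tested, 4 rose and 5 fell, and the left-out fits called 3, 2, 2 and 3 (leaving out pifq 1, pifq 2, Col 1 and Col 2) rises and 3, 4, 3 and 3 falls. BBX23, a promoter of light-type growth, had 1 read in pifq and 1233 in Col, a ratio of Col over pifq of 1369 (exact 95% interval 245.3 to 5.413e+04, counting error only). BBX20 had values of 102 and 96.5 in pifq, against 594 and 584 in Col (limma log2 fold change -2.56 with SE 0.20, adjusted p = 0.000626). BBX25, a repressor that interferes with HY5, stood at 268 and 442 in pifq, against 25.7 and 45.5 in Col (limma log2 fold change 3.29 with SE 0.37, adjusted p = 0.00336), and BBX15 at 1833 and 1404 in pifq, against 454 and 533 in Col (limma log2 fold change 1.7 with SE 0.21, adjusted p = 0.00512). None of these 4 genes overlapped between the genotypes, as held for every called gene. Of the photoreceptor and COP1/SPA/HY5 list 16% fell, against 2.93% of all genes. Among 25 photoreceptor and COP1/SPA/HY5 genes 4 fell, and in the left-out fits the falls numbered 1, 2, 2 and 0. HY5, the bZIP factor of light-type development, measured 113 and 95.3 in pifq, against 303 and 371 in Col (log2 fold change -1.68, adjusted p = 0.00731, and 0.0528 leaving out Col replicate 2). FHY1 and FHL, which carry phytochrome A into the nucleus, had log2 fold changes of -1.78 and -1.58, with each call lost in 3 of the 4 left-out fits (adjusted p up to 0.0589 for FHY1 and 0.121 for FHL, both without pifq replicate 1). PHYA, the phytochrome that gathers in darkness, stood at 12771 and 12819.7 in pifq, against 23436 and 29497 in Col (adjusted p = 0.0498, and 0.211 leaving out pifq replicate 1, 0.143 leaving out pifq replicate 2, 0.137 leaving out Col replicate 1 and 0.263 leaving out Col replicate 2). ELIP2 was at 9.6 and 20.4 in pifq, against 207 and 544 in Col (limma log2 fold change -4.48 with SE 0.50, adjusted p = 0.00318) and fell with ELIP1, each also in every left-out fit. The 4 related one-helix and SEP genes did not pass, so that falls were 33.3% of this list, against 2.93% of all genes.

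**Figure D2:**
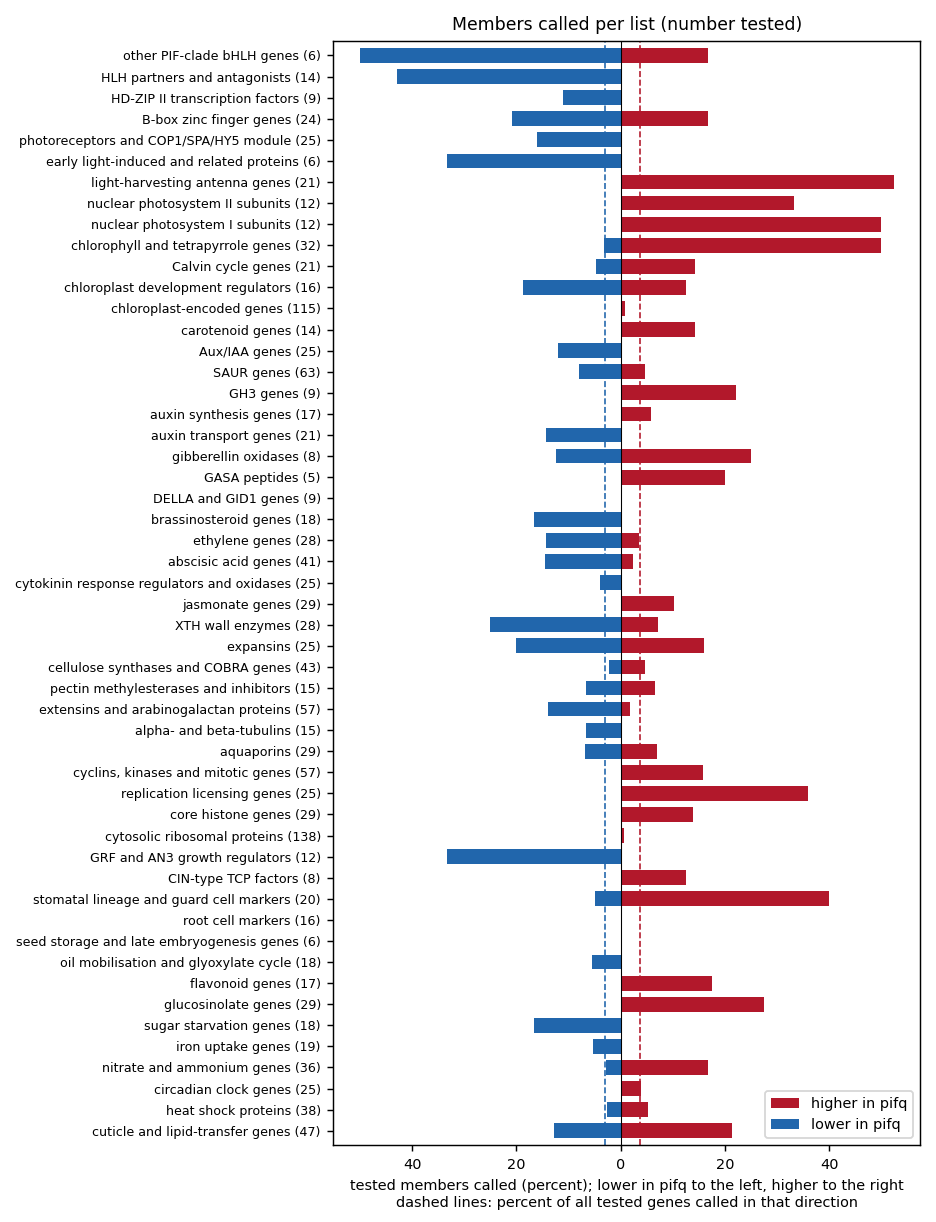
Bars give the percentage of tested members of each list that rose in pifq (red, to the right) or fell (blue, to the left), for the lists with at least 5 tested members, whose number stands in brackets. Dashed lines mark the share among all tested genes, 3.68% for rises and 2.93% for falls. Antenna, photosystem I and chlorophyll lists reach 50% or more to the right, and the other PIF-clade, HLH, early light-induced and GRF lists reach furthest to the left.

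Many nuclear photosynthesis genes rose, among them 52.4% of the antenna list, against 3.68% of all genes. Of 21 light-harvesting antenna genes 11 rose, with a median log2 fold change of 1.58, and the list took 6.51% and 8.35% of the reads of the pifq libraries, against 2.37% and 1.77% of those of the Col libraries. LHCB1.1, a major antenna protein of photosystem II, stood at 74115 and 155431 in pifq, against 2198 and 2544 in Col (limma log2 fold change 5.5 with SE 0.33, adjusted p = 0.000183), and LHCB1.4 at 104846 and 122908 in pifq, against 2174 and 948 in Col (limma log2 fold change 6.3 with SE 0.39, adjusted p = 0.000199). LHCB2.2 stood at 21925 and 47507 in pifq, against 4260.1 and 4322 in Col (limma log2 fold change 2.91 with SE 0.42, adjusted p = 0.00828). Replicate 2 of pifq was the higher pifq library for all 3. LHCB1 copies are nearly identical and can share reads, so the values of single copies are uncertain. With 1 library left out, the rises numbered 5, 5, 6 and 5 (leaving out pifq 1, pifq 2, Col 1 and Col 2). LHCB1.2, also among the 5 largest gains of reads, had values of 97407 and 107201 in pifq, against 17599.6 and 7811 in Col (adjusted p = 0.0155, and 0.0723 leaving out pifq replicate 1, 0.0641 leaving out pifq replicate 2 and 0.0681 leaving out Col replicate 2).

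Several photosystem subunit genes rose, 33.3% of the photosystem II list and 50% of the photosystem I list, against 3.68% of all genes. Of 12 nuclear photosystem II genes 4 rose (median 1.23), and of 12 of photosystem I 6 rose (median 1.53), with a positive fold change in all 24. The photosystem I genes took 0.967% and 1.26% of the reads of the pifq libraries, against 0.418% and 0.344% of those of the Col libraries. PSBO2, of the oxygen-evolving complex, had values of 9625 and 10407 in pifq, against 2708 and 2556 in Col (limma log2 fold change 1.93 with SE 0.20, adjusted p = 0.00243). PSAN, on the plastocyanin side of photosystem I, measured 5310.2 and 7699.8 in pifq, against 1606 and 1716 in Col (limma log2 fold change 1.94 with SE 0.23, adjusted p = 0.00438). PSAH2 stood at 8709 and 14284 in pifq, against 2686 and 3259 in Col (log2 fold change 1.91, adjusted p = 0.00946, and 0.0503 leaving out Col replicate 1). In all 3 the lower pifq library was more than 2-fold above the higher Col library. In the left-out fits 2, 1, 2 and 1 (leaving out pifq 1, pifq 2, Col 1 and Col 2) photosystem II and 3, 3, 2 and 2 photosystem I genes rose. With library totals in place of the deposited scaling the rises were 7 and 10, and with DESeq2 9 and 10.

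Chlorophyll and tetrapyrrole genes that changed rose with 1 exception, with 50% of the list rising and 3.12% falling, against 3.68% and 2.93% of all genes. Of 32 tested, 16 rose and 1 fell (median 0.80), and in the left-out fits 6, 4, 2 and 5 (leaving out pifq 1, pifq 2, Col 1 and Col 2) rose. The exception was PORA, the protochlorophyllide oxidoreductase of dark-grown tissue, at 9679 and 9809.7 in pifq, against 70965 and 64658 in Col (limma log2 fold change -2.8 with SE 0.29, adjusted p = 0.00243). CHLI1, a magnesium chelatase subunit, was at 9621 and 10544 in pifq, against 3187 and 3729 in Col (limma log2 fold change 1.55 with SE 0.19, adjusted p = 0.00483). HEME1, a uroporphyrinogen decarboxylase, stood at 5337 and 6157 in pifq, against 2037 and 2237 in Col (limma log2 fold change 1.42 with SE 0.18, adjusted p = 0.00552). With PORA, the list took 1.14% and 1.15% of the reads of the pifq libraries, against 1.09% and 1.15% of those of the Col libraries. The genotypes thus overlapped, but a share without PORA was not computed, and 26 of the 32 genes had a positive fold change. Of 21 Calvin cycle genes 3 rose (14.3%, against 3.68% of all genes) and 1 fell (4.76%, against 2.93%). The share of rises in the carotenoid list below was also 14.3%. GAPA-2, a glyceraldehyde phosphate dehydrogenase, stood at 10059 and 13006 in pifq, against 3133 and 3079 in Col (limma log2 fold change 1.88 with SE 0.24, adjusted p = 0.00576), and RBCS2B, a copy of the Rubisco small subunit that can share reads with its copies, at 20130.1 and 20129 in pifq, against 65719 and 52143 in Col (adjusted p = 0.0372, and 0.176 leaving out pifq replicate 1, 0.121 leaving out pifq replicate 2, 0.181 leaving out Col replicate 1 and 0.119 leaving out Col replicate 2). Leaving out 1 library, 1, 1, 2 and 1 Calvin cycle genes rose. Of 14 carotenoid genes 2 rose, and 0, 0, 0 and 2 in the left-out fits. PSY, phytoene synthase, one of them, had values of 3245 and 3911 in pifq, against 1119 and 1779 in Col (adjusted p = 0.0178, and 0.0624 leaving out pifq replicate 1, 0.0777 leaving out pifq replicate 2 and 0.0826 leaving out Col replicate 1).

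Of 16 nuclear regulators of plastid development 2 rose (12.5%, against 3.68% of all genes) and 3 fell (18.8%, against 2.93%), and in the left-out fits 0, 0, 0 and 0 (leaving out pifq 1, pifq 2, Col 1 and Col 2) rose and 0, 1, 0 and 1 fell. GATA2, a factor of light-type growth, measured 800.1 and 928 in pifq, against 2892 and 2039 in Col (log2 fold change -1.49, adjusted p = 0.0145, and 0.0904 leaving out pifq replicate 1 and 0.0773 leaving out Col replicate 1). GLK1, which activates photosynthesis genes, stood at 1290.4 and 1253 in pifq, against 1046 and 733 in Col, and its homologue GLK2 at 1269 and 1461 in pifq, against 798 and 791 in Col, with adjusted p of 0.171 and 0.0645, both picked after their values were seen. Among 115 tested chloroplast-encoded genes 1 rose (0.87%), with a list median of -0.22. They took 2.83% and 2.22% of the reads of the pifq libraries, against 4.15% and 2.6% of those of the Col libraries, so that Col replicate 1 was the high library and the genotypes overlapped. In the left-out fits 0, 1, 0 and 0 rose and 0, 0, 0 and 10 fell.

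**Figure D3:**
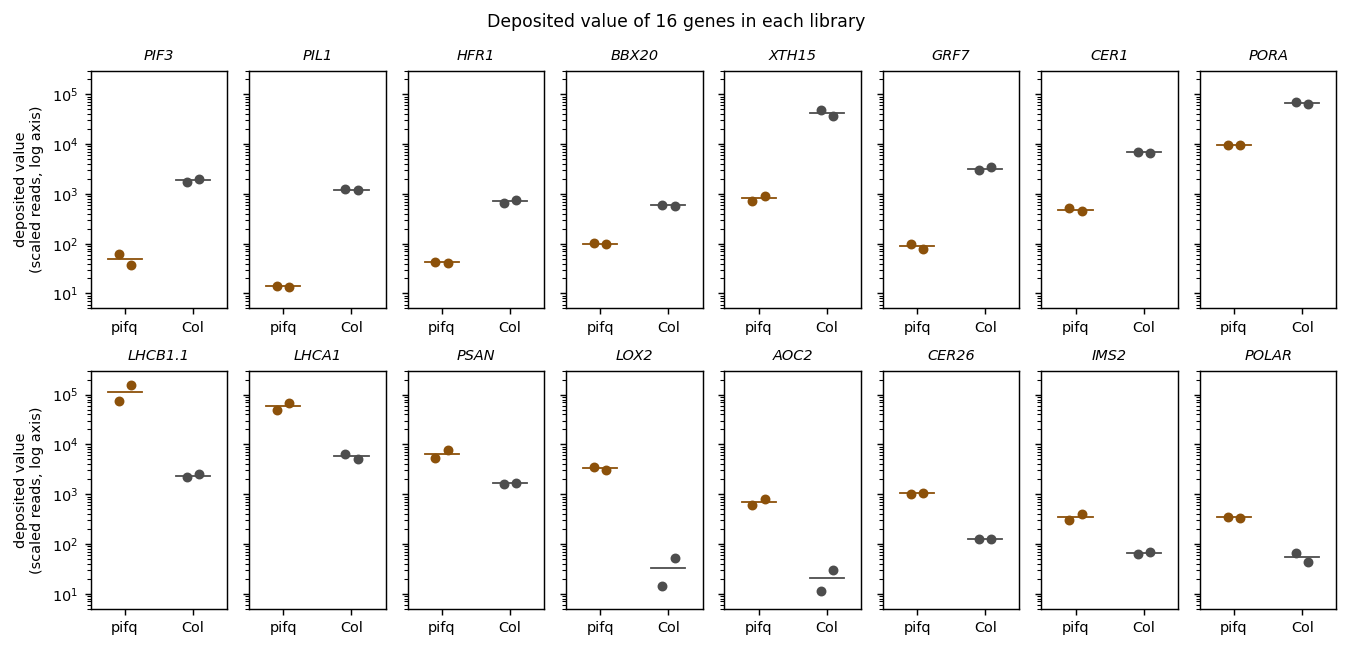
Each panel gives the deposited value of 1 gene on a log axis, with the pifq libraries at the left and the Col libraries at the right, replicate 1 left of replicate 2, and a bar at the mean of the genotype. The upper 8 genes fell in pifq and the lower 8 rose. As for every called gene, the genotypes do not overlap in any of the 16.

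Auxin families gave 0 to 5 calls in each direction, to be read against 3.68% rises and 2.93% falls over all genes. Of 25 Aux/IAA genes, which encode repressors of auxin response, 3 fell (12%), and 1, 1, 1 and 0 (leaving out pifq 1, pifq 2, Col 1 and Col 2) in the left-out fits. IAA29 stood at 46.3 and 99.9 in pifq, against 306 and 379.8 in Col (log2 fold change -2.31, adjusted p = 0.0139, and 0.051 leaving out pifq replicate 1 and 0.0699 leaving out Col replicate 2). Of 63 SAUR genes, growth genes that respond to auxin early, 3 rose (4.76%) and 5 fell (7.94%), and in the left-out fits 0, 0, 1 and 0 rose and 2, 3, 1 and 1 fell. SAUR17 stood at 4 and 17 in pifq, against 296 and 444 in Col (limma log2 fold change -5.26 with SE 0.67, adjusted p = 0.00537), while SAUR14 stood at 326 and 368 in pifq, against 114 and 77.9 in Col (log2 fold change 1.86, adjusted p = 0.0116, and 0.0651 leaving out pifq replicate 1, 0.0658 leaving out pifq replicate 2 and 0.0633 leaving out Col replicate 2). SAUR17 was nearly lost in pifq replicate 1 and low in replicate 2. Of 9 GH3 genes 2 rose (22.2%), and 1, 0, 1 and 1 in the left-out fits. GH3.9, an auxin-amido synthetase, was at 157 and 302 in pifq, against 1.3 and 8.8 in Col (log2 fold change 5.53, adjusted p = 0.00822, and 0.0629 leaving out pifq replicate 2). Of 21 auxin transport genes 3 fell (14.3%), the kinase genes WAG1 (log2 fold change -1.51) and WAG2 (-1.52) and the transporter ABCB4 (-1.05), with 1, 0, 0 and 2 falls in the left-out fits. Among 17 auxin synthesis genes YUC7 alone rose (5.88%), at 76.7 and 44.3 in pifq, against 14.1 and 11.4 in Col (adjusted p = 0.043), a call lost in all left-out fits at 0.268 leaving out pifq replicate 1, 0.0775 leaving out pifq replicate 2, 0.12 leaving out Col replicate 1 and 0.151 leaving out Col replicate 2.

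Gibberellin oxidase and brassinosteroid genes gave 3 calls each, and none held in a left-out fit. Among 8 gibberellin oxidases GA20OX3 and GA2OX2 rose by 2.12 and 1.35 on the log2 scale and GA3OX1 fell (log2 fold change -1.4), each lost in every left-out fit (lowest adjusted p 0.0618, 0.0842 and 0.0576). Rises were thus 25% of the list and falls 12.5%, against 3.68% and 2.93% of all genes. Of 9 DELLA and GID1 genes, which encode the repressors and receptors of gibberellin signalling, limma called 0 and edgeR 0, DESeq2 called 1 fall, and 2 had an unadjusted p below 0.05. RGA1, a DELLA repressor, stood at 2085 and 2069 in pifq, against 3480.1 and 2856 in Col (adjusted p = 0.0934). Of 5 GASA genes GASA6 alone rose (20%, against 3.68% of all genes) and alone had a positive fold change, with a list median of -0.79. GASA6, a gibberellin-regulated peptide, had values of 1892 and 4008 in pifq, against 682 and 568 in Col (log2 fold change 2.14, adjusted p = 0.0285, and 0.105 leaving out pifq replicate 2, 0.0795 leaving out Col replicate 1 and 0.104 leaving out Col replicate 2). Of 18 brassinosteroid genes 3 fell (16.7%), BR6OX2, SOB7 and ROT3, all enzymes of synthesis or inactivation, with log2 fold changes of -0.87, -0.81 and -0.94, and 0 passed in any left-out fit (lowest adjusted p 0.0826, 0.12 and 0.0713).

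Several ethylene and abscisic acid genes fell. The share that rose was 3.57% of the ethylene and 2.44% of the abscisic acid list, against 3.68% of all genes. Of 28 ethylene genes 4 fell (14.3%, against 2.93%) and 1 rose, and in the left-out fits 3, 3, 2 and 2 (leaving out pifq 1, pifq 2, Col 1 and Col 2) fell. Besides ACS5, HLS1, which is needed for the apical hook, measured 295 and 176 in pifq, against 993 and 844 in Col (limma log2 fold change -2.0 with SE 0.28, adjusted p = 0.00729). ACO5, an ethylene-forming oxidase, stood at 745 and 1308 in pifq, against 2998 and 3148 in Col (log2 fold change -1.64, adjusted p = 0.0128, and 0.0516 leaving out Col replicate 1 and 0.0585 leaving out Col replicate 2). Its relative ACO4 rose, at 5072 and 8224 in pifq, against 2322 and 2866 in Col (log2 fold change 1.32, adjusted p = 0.0237, and 0.0766 leaving out pifq replicate 2, 0.115 leaving out Col replicate 1 and 0.0611 leaving out Col replicate 2). The 2 oxidase genes thus moved in opposite directions in both pifq libraries. Of 41 abscisic acid genes 6 fell (14.6%) and 1 rose, and 1, 1, 1 and 1 fell in the left-out fits. RD29A, a dehydration gene, was at 914 and 1152 in pifq, against 2885 and 5973 in Col (log2 fold change -2.02, adjusted p = 0.0115, and 0.0733 leaving out pifq replicate 1). ABI5, the bZIP factor of seed and seedling abscisic acid response, stood at 134 and 79.4 in pifq, against 294 and 273 in Col (adjusted p = 0.0245, and 0.0796 leaving out pifq replicate 2, 0.114 leaving out Col replicate 1 and 0.0908 leaving out Col replicate 2).

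Of 29 jasmonate genes 3 rose (10.3%, against 3.68% of all genes), and 3, 2, 2 and 2 (leaving out pifq 1, pifq 2, Col 1 and Col 2) in the left-out fits. LOX2 was given above, and AOC2, a cyclase of the same pathway, had values of 610.1 and 818 in pifq, against 11.6 and 30.6 in Col (limma log2 fold change 5.15 with SE 0.60, adjusted p = 0.004). OPR1 measured 2212 and 3772 in pifq, against 1191 and 1118 in Col (adjusted p = 0.0423, and 0.141 leaving out pifq replicate 2, 0.127 leaving out Col replicate 1 and 0.146 leaving out Col replicate 2). The median of the list was -0.08. Of the 29, 12 had a positive fold change. Of 25 cytokinin genes CKX5, an enzyme that degrades cytokinin, alone fell (4%, near the 2.93% of all genes). It stood at 165 and 175 in pifq, against 1122 and 934 in Col (limma log2 fold change -2.58 with SE 0.18, adjusted p = 0.000404). When Col replicate 2 was left out, 2 genes rose.

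Wall enzymes of cell expansion moved in both directions. Of 28 XTH genes, which cut and rejoin xyloglucan, 7 fell (25%, against 2.93% of all genes) and 2 rose (7.14%, against 3.68%). The median was -0.57, and the list took 0.228% and 0.239% of the reads of the pifq libraries, against 0.526% and 0.472% of those of the Col libraries. XTH15 stood at 728 and 908 in pifq, against 48477 and 37367 in Col (limma log2 fold change -5.71 with SE 0.30, adjusted p = 8.23e-05), and XTH31 at 2863 and 3013 in pifq, against 11518 and 8952 in Col (limma log2 fold change -1.79 with SE 0.22, adjusted p = 0.00522). XTH5 stood at 258 and 225 in pifq, against 1506 and 743 in Col (limma log2 fold change -2.13 with SE 0.30, adjusted p = 0.00807). XTH15 lost nearly all of its reads in both pifq libraries. XTH6 rose, at 184 and 431 in pifq, against 0.0 and 7 in Col (log2 fold change 6.64, adjusted p = 0.0115, and 0.056 leaving out pifq replicate 1 and 0.0737 leaving out pifq replicate 2). Leaving out 1 library, 4, 6, 3 and 5 (leaving out pifq 1, pifq 2, Col 1 and Col 2) XTH genes fell and 0, 1, 2 and 1 rose.

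Expansins, which loosen the wall without cutting it, divided evenly, with 16% of the list rising and 20% falling, against 3.68% and 2.93% of all genes. Of 25 tested, 4 rose and 5 fell, with 2, 2, 3 and 2 (leaving out pifq 1, pifq 2, Col 1 and Col 2) rises and 2, 2, 2 and 3 falls in the left-out fits. EXPA9 stood at 693 and 1229 in pifq, against 9610.0 and 8019.9 in Col (limma log2 fold change -3.25 with SE 0.28, adjusted p = 0.00107) and EXPA12 at 6.4 and 15.9 in pifq, against 132 and 145 in Col (limma log2 fold change -3.64 with SE 0.50, adjusted p = 0.00695). EXPA1 was at 4758 and 6386 in pifq, against 1642 and 1101 in Col (limma log2 fold change 2.03 with SE 0.28, adjusted p = 0.00705), higher in both pifq libraries as EXPA10 was. Of 57 extensin and arabinogalactan protein genes 8 fell (14%) and 1 rose (1.75%), with a median of -0.71, and -0.21 without pifq replicate 1. In the left-out fits 1, 10, 2 and 7 fell, so this count depended on single libraries. LRX2, a chimeric extensin of root hairs, stood at 931 and 1867 in pifq, against 5640.3 and 5111 in Col (limma log2 fold change -2.02 with SE 0.30, adjusted p = 0.00954), and AGP17 at 541 and 586 in pifq, against 148 and 46.4 in Col (log2 fold change 2.75, adjusted p = 0.0142, and 0.0721 leaving out pifq replicate 1 and 0.0636 leaving out pifq replicate 2). Of 43 cellulose synthase and COBRA genes 2 rose (4.65%, against 3.68% of all genes) and 1 fell (2.33%, against 2.93%), with 1 rise and 1 fall in each left-out fit. CSLD5 rose, at 2900.3 and 2033 in pifq, against 933 and 789 in Col (limma log2 fold change 1.5 with SE 0.21, adjusted p = 0.00731). CSLB04 rose by 1.36 (lost in every left-out fit, lowest adjusted p 0.0697), and CSLA02 fell, at 1164 and 939.8 in pifq, against 2561 and 2485 in Col (limma log2 fold change -1.27 with SE 0.17, adjusted p = 0.00695). TUB1, a beta-tubulin, fell alone among 15 tubulins (6.67%, against 2.93% of all genes), also in each left-out fit. It stood at 2681 and 2681 in pifq, against 10191 and 8135 in Col (limma log2 fold change -1.76 with SE 0.23, adjusted p = 0.00565). Of 29 aquaporins 2 rose and 2 fell (6.9% each), and of 15 pectin methylesterase and inhibitor genes 1 rose and 1 fell (6.67% each), with at most 1 call in either direction in any left-out fit of these lists.

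**Figure D4:**
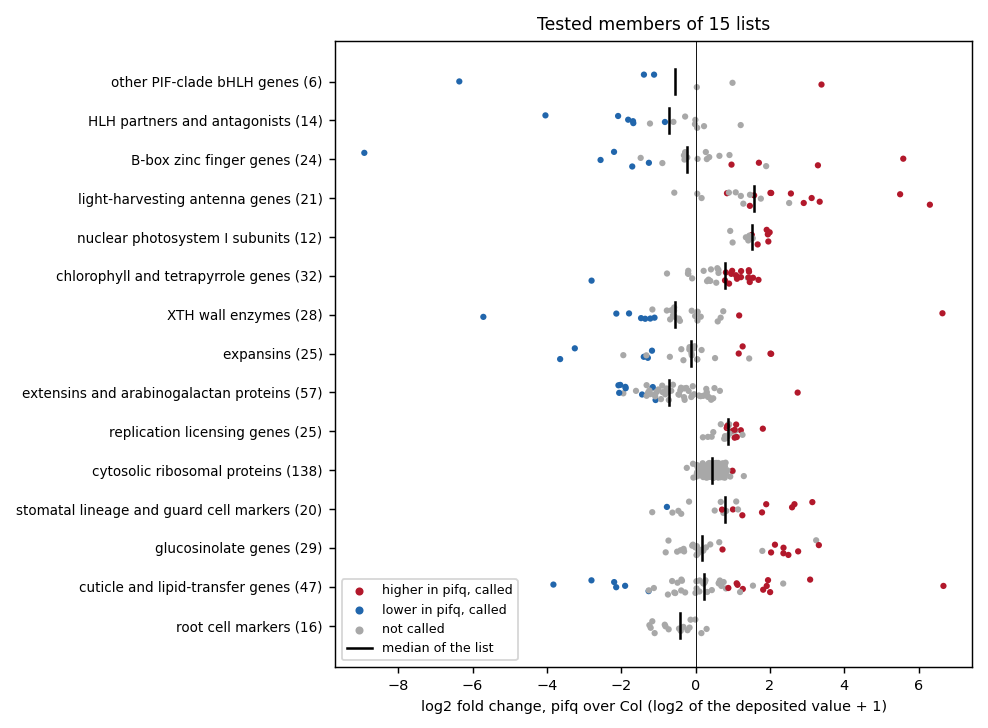
Each point is a tested member of 1 of 15 lists at its log2 fold change, pifq over Col, on the scale of log2 of the deposited value plus 1, with red for called rises, blue for called falls, grey for the rest and a black bar at the median. The antenna, photosystem I and replication lists lie to the right of 0 nearly as a whole, while B-box, expansin and cuticle lists hold calls on both sides. Genes with no or next to no reads in 1 genotype, such as BBX23 and MAH1, are drawn at a fitted value that depends on the added 1.

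Some cell division genes rose by small amounts. Of 57 cyclin, kinase and mitotic genes 9 rose (15.8%, against 3.68% of all genes), with a median of 0.43. HIK, a kinesin of cytokinesis, stood at 717 and 694 in pifq, against 235 and 263 in Col (limma log2 fold change 1.5 with SE 0.20, adjusted p = 0.00645), and CYCD3;1, a cyclin of cell cycle entry, at 909 and 900.0 in pifq, against 460.1 and 403 in Col (adjusted p = 0.0115, and 0.0688 leaving out pifq replicate 1, 0.0528 leaving out pifq replicate 2 and 0.075 leaving out Col replicate 2). Of 25 replication licensing genes 9 rose (36%, against 3.68%), with a positive fold change in all 25 and a median of 0.88. They took 0.0605% and 0.0499% of the reads of the pifq libraries, against 0.0285% and 0.03% of those of the Col libraries. MCM7, a subunit of the replicative helicase, stood at 946 and 953 in pifq, against 523 and 528 in Col (adjusted p = 0.0266), a call lost in every left-out fit, at 0.127 leaving out pifq replicate 1, 0.0899 leaving out pifq replicate 2, 0.124 leaving out Col replicate 1 and 0.114 leaving out Col replicate 2. With 1 library left out, the rises numbered 1, 5, 5 and 1 (leaving out pifq 1, pifq 2, Col 1 and Col 2) for the mitotic and 0, 3, 0 and 1 for the licensing genes. The median of the licensing genes without pifq replicate 1 was 0.85. Of 29 core histone genes 4 rose, all by less than 1 on the log2 scale, and in the left-out fits 0, 2, 0 and 0 rose. HTB1, a histone H2B, stood at 798 and 755 in pifq, against 459 and 382 in Col (adjusted p = 0.0243, and 0.132 leaving out pifq replicate 1, 0.0746 leaving out pifq replicate 2, 0.0677 leaving out Col replicate 1 and 0.137 leaving out Col replicate 2). The other 3 were genes of histone H3.1, whose near-identical copies can share reads. Together these rises were 13.8% of the histone list, against 3.68% of all genes.

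Of 138 genes of cytosolic ribosomal proteins 135 had a positive fold change (median 0.43). By limma 1 rose (0.725%, against 3.68% of all genes), by edgeR 1 and by DESeq2 11. An unadjusted p below 0.05 was found for 36, all higher in pifq. They took 2.46% and 1.75% of the reads of the pifq libraries, against 1.68% and 1.47% of those of the Col libraries, with pifq replicate 1 the highest, and the median without pifq replicate 1 was 0.16. The 1 that rose by limma, AT2G33370, had values of 1429 and 1025 in pifq, against 659 and 560.1 in Col (adjusted p = 0.0317, and 0.178 leaving out pifq replicate 1, 0.089 leaving out Col replicate 1 and 0.152 leaving out Col replicate 2). Of 12 GRF and AN3 genes, which promote leaf growth, 4 fell, and in the left-out fits 2, 2, 3 and 2 (leaving out pifq 1, pifq 2, Col 1 and Col 2) fell. GRF7 stood at 97.4 and 79.4 in pifq, against 2972 and 3401 in Col (limma log2 fold change -5.16 with SE 0.18, adjusted p = 1.86e-05), and GRF2 at 414 and 575 in pifq, against 1579 and 2063 in Col (limma log2 fold change -1.89 with SE 0.22, adjusted p = 0.004). GRF7 had the second smallest adjusted p of the lists, after PIL1, while the median of its list was 0.08. Falls made up 33.3% of that list, against 2.93% of all genes, and rises 12.5% of the CIN-type TCP list below, against 3.68%. Among 8 CIN-type TCP factors TCP10 alone rose, at 584 and 637 in pifq, against 319 and 366 in Col (adjusted p = 0.0358, and 0.137 leaving out pifq replicate 1, 0.128 leaving out pifq replicate 2, 0.183 leaving out Col replicate 1 and 0.104 leaving out Col replicate 2).

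Several genes of the stomatal lineage and guard cell list rose. Of 20 tested, 8 rose (40%, against 3.68% of all genes) and 1 fell (5%, against 2.93%), with a median of 0.79. Of the 20, 14 had a positive fold change, and the lowest log2 fold change was -1.17. SDD1, a protease of stomatal spacing, measured 383 and 401 in pifq, against 108 and 101 in Col (limma log2 fold change 1.9 with SE 0.22, adjusted p = 0.00371). POLAR, a polarity protein of the asymmetric division, stood at 352 and 336 in pifq, against 66.8 and 42.9 in Col (limma log2 fold change 2.66 with SE 0.32, adjusted p = 0.00415). BASL, which works with it, was at 154 and 91.9 in pifq, against 12.9 and 12.3 in Col (log2 fold change 3.14, adjusted p = 0.00673, and 0.0647 leaving out pifq replicate 1). In each the pifq libraries were more than 3-fold above the Col libraries. TMM, a receptor-like protein of the same lineage, stood at 1334 and 1146 in pifq, against 567 and 470.0 in Col (adjusted p = 0.0126, and 0.0848 leaving out pifq replicate 1 and 0.072 leaving out Col replicate 2). In the left-out fits 2, 4, 5 and 3 (leaving out pifq 1, pifq 2, Col 1 and Col 2) rose.

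Root markers gave no call. Of 16 tested, limma called 0, edgeR 0 and DESeq2 2 falls, and 4 had an unadjusted p below 0.05, all lower in pifq, and 1 fell when pifq replicate 2 was left out. The median was -0.42, and -0.14 without pifq replicate 1. CASP2, of the endodermal Casparian strip, stood at 614 and 650.3 in pifq, against 1637 and 1226 in Col (adjusted p = 0.0747), and CASP1 at 1323 and 1434 in pifq, against 3919.6 and 2226 in Col (adjusted p = 0.102). The root list took 0.0357% and 0.0526% of the reads of the pifq libraries, against 0.0669% and 0.0823% of those of the Col libraries, without overlap between genotypes. A part of this shift in the falls of root-expressed wall genes such as LRX2 was not tested.

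**Figure D5:**
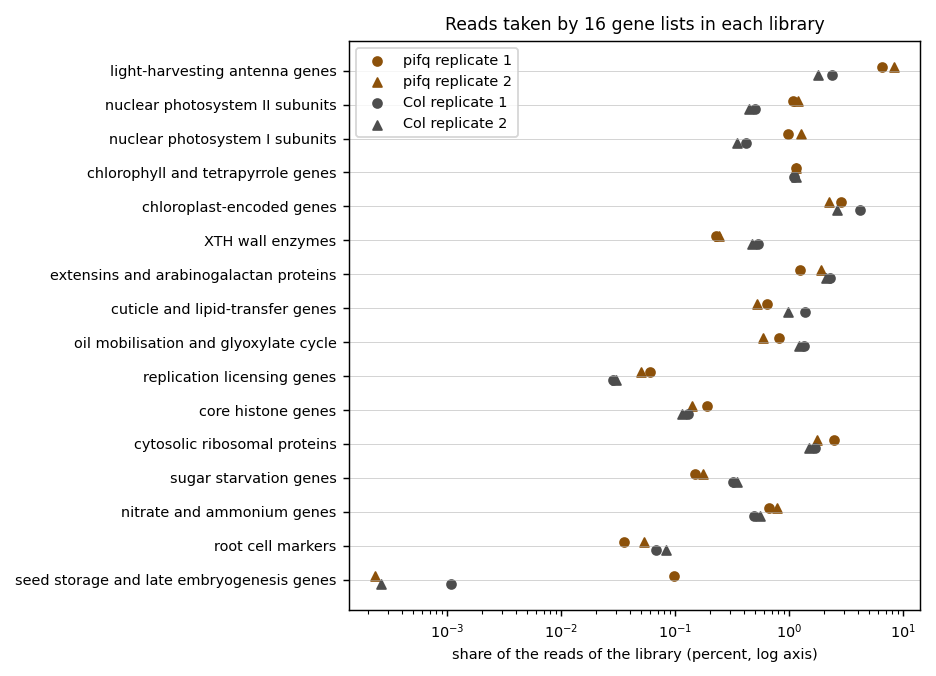
Each point is the share of the reads of 1 library that fell on a list, in percent on a log axis, with pifq in brown above Col in grey, circles for replicate 1 and triangles for replicate 2. The antenna and photosystem lists are higher in both pifq libraries, and the XTH, cuticle, oil and sugar starvation lists are lower. The seed storage list is high in pifq replicate 1 alone. The cuticle share includes LTP2, the called gene with the largest loss of reads.

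Cuticle genes changed in both directions by large amounts. Over all genes 3.68% rose and 2.93% fell. Of 47 genes of wax, cutin and lipid transfer 10 rose (21.3%) and 6 fell (12.8%), and in the left-out fits 3, 6, 7 and 3 (leaving out pifq 1, pifq 2, Col 1 and Col 2) rose and 4, 3, 3 and 3 fell. CER1, of alkane synthesis, had values of 517 and 447 in pifq, against 7018 and 6637 in Col (limma log2 fold change -3.82 with SE 0.17, adjusted p = 4.85e-05). CER26, which takes part in the elongation of very long fatty acids, measured 1026 and 1080.5 in pifq, against 123 and 123 in Col (limma log2 fold change 3.08 with SE 0.20, adjusted p = 0.000212). CYP86A4, a fatty acid hydroxylase of cutin, stood at 232 and 193 in pifq, against 1001 and 867 in Col (limma log2 fold change -2.13 with SE 0.22, adjusted p = 0.00243). CER1 and MAH1, which make and hydroxylate alkanes, thus moved in opposite directions. LTP2, a lipid-transfer protein and the gene with the largest loss of reads among those called, stood at 30896 and 15622 in pifq, against 206351 and 113471 in Col (log2 fold change -2.8, adjusted p = 0.0346), a call lost in every left-out fit, at 0.0958 leaving out pifq replicate 1, 0.158 leaving out pifq replicate 2, 0.163 leaving out Col replicate 1 and 0.088 leaving out Col replicate 2. The list, LTP2 included, took 0.64% and 0.523% of the reads of the pifq libraries, against 1.38% and 0.964% of those of the Col libraries. Its share without LTP2 was not computed, and 29 of the 47 tested genes had a positive fold change (median 0.23).

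Several glucosinolate genes rose, to be read against 3.68% rises over all genes. Of 29 tested, 8 rose (27.6%), and in the left-out fits 4, 5, 6 and 7 (leaving out pifq 1, pifq 2, Col 1 and Col 2) rose. IMS2, a methylthioalkylmalate synthase, stood at 299 and 393 in pifq, against 63 and 68.3 in Col (limma log2 fold change 2.37 with SE 0.22, adjusted p = 0.00156), and IMD1, a later enzyme of the same chain elongation of methionine, at 248 and 225 in pifq, against 45 and 62.1 in Col (limma log2 fold change 2.14 with SE 0.24, adjusted p = 0.0037). MYB28, the regulator of aliphatic glucosinolates, stood at 240.4 and 237 in pifq, against 52.7 and 39.4 in Col (limma log2 fold change 2.36 with SE 0.31, adjusted p = 0.00612), and IPMI1 at 69.5 and 67 in pifq, against 10.3 and 12.3 in Col (limma log2 fold change 2.5 with SE 0.34, adjusted p = 0.00667). All 4 were genes of the aliphatic branch, and as with every called gene none overlapped between genotypes. The list median was 0.17, with fold changes on the log2 scale between -0.8 and 3.32. Of the 29, 20 were positive. Of 17 flavonoid genes 3 rose (17.6%), and in the left-out fits 0, 4, 0 and 1. TT5, chalcone isomerase, was at 357 and 249 in pifq, against 86.1 and 95.4 in Col (adjusted p = 0.0136, and 0.0937 leaving out pifq replicate 1 and 0.066 leaving out Col replicate 1).

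A few starvation and reserve genes fell. Of 18 sugar starvation genes 3 fell (16.7%, against 2.93% of all genes), with a median of -0.73. The list took 0.15% and 0.175% of the reads of the pifq libraries, against 0.317% and 0.346% of those of the Col libraries. SEN1, induced by darkness and sugar loss, stood at 1865 and 1914 in pifq, against 8871 and 6334 in Col (limma log2 fold change -1.99 with SE 0.27, adjusted p = 0.00729). BCAT-2, of branched-chain amino acid breakdown, had values of 98.2 and 368 in pifq, against 1333 and 2561 in Col (log2 fold change -3.27, adjusted p = 0.0172, and 0.078 leaving out Col replicate 2). Leaving out 1 library, 2, 2, 3 and 1 (leaving out pifq 1, pifq 2, Col 1 and Col 2) fell. Of 18 genes of oil mobilisation 17 had a negative fold change (median -0.34), and ACX1, an acyl-CoA oxidase, fell, at 4581 and 4634 in pifq, against 9120.4 and 10046 in Col (adjusted p = 0.0225), a call lost in every left-out fit, at 0.12 leaving out pifq replicate 1, 0.0821 leaving out pifq replicate 2, 0.0954 leaving out Col replicate 1 and 0.128 leaving out Col replicate 2. That list took 0.806% and 0.591% of the reads of the pifq libraries, against 1.34% and 1.22% of those of the Col libraries. The fall of ACX1 was 5.56% of it, against 2.93% of all genes.

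Of 36 nitrate and ammonium genes 6 rose (16.7%, against 3.68% of all genes) and 1 fell (2.78%, against 2.93%), with 3, 3, 3 and 2 (leaving out pifq 1, pifq 2, Col 1 and Col 2) rises and no fall in the left-out fits. NIR1, nitrite reductase, measured 15419 and 15186 in pifq, against 4859 and 5173 in Col (limma log2 fold change 1.61 with SE 0.20, adjusted p = 0.00483). NRT1.7, a nitrate transporter of the phloem, stood at 894 and 922 in pifq, against 275 and 220.5 in Col (limma log2 fold change 1.88 with SE 0.19, adjusted p = 0.00243). Both were higher in each pifq library than in either Col library. FRO3, a ferric reductase, was the only 1 of 19 iron genes to fall (5.26% of the list, log2 fold change -1.16, adjusted p = 0.0397, and 0.155 leaving out pifq replicate 1, 0.123 leaving out Col replicate 1 and 0.146 leaving out Col replicate 2). Of 25 clock genes CHE alone rose (4%), at 1280.0 and 1107 in pifq, against 583 and 361 in Col (adjusted p = 0.0381, and 0.188 leaving out pifq replicate 1, 0.0933 leaving out pifq replicate 2 and 0.163 leaving out Col replicate 2). In the left-out fits 0, 0, 1 and 0 clock genes rose and 1, 0, 0 and 0 fell. Of 38 heat shock genes 2 rose (5.26%) and 1 fell (2.63%), near the shares over all genes, with 0, 2, 0 and 0 rises and 1, 0, 0 and 0 falls in those fits.

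Beyond the lists, the naming rule gave further genes with large changes. QQS, a gene without known relatives that affects starch content, was at 502 and 692 in pifq, against 1.3 and 5.3 in Col (limma log2 fold change 7.28 with SE 0.59, adjusted p = 0.000816), the largest rise among genes with a symbol, a mean value of at least 100 and no overlap. MSRB6, a methionine sulfoxide reductase, stood at 260.3 and 137 in pifq, against 6.4 and 5.3 in Col (limma log2 fold change 4.8 with SE 0.50, adjusted p = 0.00248), and CRK30, a receptor-like kinase, at 336 and 326 in pifq, against 27 and 16.6 in Col (limma log2 fold change 3.9 with SE 0.38, adjusted p = 0.00202). Each was low in both Col libraries. On the falling side, CYP96A5, a cytochrome P450, stood at 20.8 and 7.9 in pifq, against 621 and 728 in Col (limma log2 fold change -5.59 with SE 0.44, adjusted p = 0.000721). FLP1 (AT4G31380), a flowering-promoting factor-like protein, had values of 15.2 and 15.9 in pifq, against 750.5 and 632 in Col (limma log2 fold change -5.38 with SE 0.36, adjusted p = 0.000305). MYB10 stood at 45.5 and 44.3 in pifq, against 1135 and 1134 in Col (limma log2 fold change -4.63 with SE 0.18, adjusted p = 2.92e-05), and DAA1, a nucleoside triphosphate hydrolase, at 134 and 108 in pifq, against 2239.9 and 3631 in Col (limma log2 fold change -4.56 with SE 0.27, adjusted p = 0.00016). These 4 were lower by more than 8-fold in both pifq libraries. CA2, a carbonic anhydrase and among the 5 largest losses of reads, stood at 17108 and 17349.5 in pifq, against 55603 and 59029 in Col (log2 fold change -1.73, adjusted p = 0.0216), a call lost in every left-out fit, at 0.11 leaving out pifq replicate 1, 0.0774 leaving out pifq replicate 2, 0.0832 leaving out Col replicate 1 and 0.094 leaving out Col replicate 2.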

How the data were processed

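RNA-seq was analysed from 2 pifq and 2 Col libraries, with 2 f1f3 libraries kept in the fit for the spread. Per the submitters' processing notes, the authors worked with TopHat2 2.1.0, Trimmomatic, edgeR and HTSeq 0.6.1 on the TAIR10 build. Which step made the values, and whether counting used strand, is not given in the sources used here. The deposited values are a signal with 1 decimal. In each library 99.98% to 100% of them were whole multiples of 1 number within a tolerance of 0.0505, namely read counts divided by a median-of-ratios factor, so reads could be recovered.

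The test was limma 3.58.1 (R 4.3.3) with its trend option, on the log2 deposited value with a pseudocount of 1, two-sided, contrast pifq minus Col, 6 libraries, 3 residual and 5.096 prior degrees of freedom, in place of a count test because values are scaled. Fold changes of low genes are understated. The threshold was a Benjamini-Hochberg adjusted p of 0.05. The alternatives were edgeR 4.0.16 with TMM and DESeq2 1.42.0 on recovered reads, library totals, other filters and pseudocounts, the 4 libraries alone, the replicate number as a block and each library left out. In a left-out fit the lone library of a genotype is assumed to vary like the others. The limma, edgeR and DESeq2 fits were also run on simulated counts drawn with the spread of these data and no replicate effect. That run checked the code and does not bear on the calls reported.

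The 53 gene lists (1599 genes, 1533 in the files, 1389 tested) and the comparison were chosen with earlier results of these data known. Named are the mutated genes, the 12 largest rises and 12 largest falls with a symbol, a mean of at least 100 and no overlap, the 5 largest gains and losses of reads, in each list up to 4 members with the smallest p, and members of lists with 5 or fewer calls. Other genes are said to be chosen after their values were seen. Symbols, gene starts and sequences come from RefSeq TAIR10.1, whose nuclear chromosome lengths are those of TAIR10. At this depth the exact 95% interval of a list's read share was at most 0.0123 percentage points to either side, for counting error only.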

Additional observations from a re-analysis of the deposited data

How the results depend on the processing

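With pseudocount 5, no filter, a minimum of 50, library totals, edgeR or the 4 libraries alone, the counts of all genes that rose (667 to 779) or fell (536 to 619) stayed within 1.5 times those reported. DESeq2 moved them to 1363 and 1081, and its list counts were 213 rises, against 138, and 145 falls. All 1337 reported genes were among its calls in the same direction. Leaving out 1 library gave 157 to 257 rises and 184 to 315 falls over all genes, and 43 to 62 rises and 40 to 56 falls over the list genes, where the fit reported has 138 and 97. Among 229 named genes, no gene with a call changed direction under any alternative, but 3 seed genes without one did. With 1 library left out, the log2 fold change of CRA1 ran between -0.11 and 9.38, of CRU3 between -0.41 and 9.94 and of PER1 between -0.51 and 3.93. The lowest values came without pifq replicate 1 and the highest without pifq replicate 2, and PER1 was also negative without Col replicate 2 (-0.11). Over all alternatives and named genes 349 calls were lost and 93 were gained, 36 of them with the replicate block and 32 with DESeq2.

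Same-numbered libraries deviated together (correlations of 0.47 for Col with pifq, 0.36 for Col with f1f3 and 0.22 for f1f3 with pifq), but with 2 numbers and no label that ties them this gives no pairing. A replicate block gave 1613 rises and 1310 falls over all genes, and 248 and 173 over the list genes, among them PIF4 and 32 of 138 cytosolic ribosomal protein genes among the rises. Within 100 bases the CACGTG shares were 4.18% for rises and 6.41% for falls. Without the 2 seed genes with the most reads, the seed share was 0.0151% and 0.000155% in the pifq libraries, against 0.000687% and 0.000243% in Col. Limits are the 2 libraries per genotype, the unlike seed share of the pifq libraries, and counts that rest on single libraries.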

Other observations

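Some strong changes lay outside the lists and were chosen after their values were seen. AT3G28915 had 2 reads in pifq and 9966 in Col, a ratio of Col over pifq of 5534 (exact 95% interval 1532 to 4.571e+04, counting error only). AT1G72290 had 0 reads in pifq and 296 in Col, at least 109.6-fold lower against a floor of 3 reads over the group, and COPT3, of a family of copper transporters, had 0 and 98, at least 36.28-fold lower. OLEO3, an oleosin of oil bodies, stood at 90.2 and 25 in pifq, against 1513 and 802 in Col (log2 fold change -4.5, limma adjusted p = 0.00763), lower in both pifq libraries, whereas the seed genes CRA1 and CRU3 were high in pifq replicate 1. GH9B13, of the endoglucanase family, stood at 1219 and 1404 in pifq, against 9030.5 and 7699 in Col (-2.67, adjusted p = 0.00313), and HEC2, a bHLH factor, at 366 and 362 in pifq, against 1862 and 1482 in Col (-2.19, adjusted p = 0.00565). On the rising side, AT1G04660 stood at 549 and 373 in pifq, against 2.6 and 7.9 in Col (6.33, adjusted p = 0.00271), AT4G28780 at 2035 and 1817 in pifq, against 88.7 and 70.0 in Col (4.59, adjusted p = 9.20e-05) and AT1G29660 at 2500.2 and 2675 in pifq, against 209.5 and 274 in Col (3.43, adjusted p = 0.0001). ASN2, an asparagine synthetase, stood at 2756 and 3217 in pifq, against 535 and 515 in Col (2.5, adjusted p = 0.000305). UPM1, of sirohaem synthesis, a cofactor of nitrite reductase, stood at 14639 and 12310.1 in pifq, against 4374 and 3763 in Col (1.73, adjusted p = 0.00532), and APR3, of sulfate reduction, at 3594 and 4462 in pifq, against 1383 and 1266 in Col (1.6, adjusted p = 0.00372). All of these were called in each of the 4 fits that leave out 1 library.

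The clock genes CCA1 and LHY, also chosen after their values were seen, differed between replicate numbers more than between genotypes. CCA1 stood at 216 and 1240.5 in pifq, against 361 and 1526 in Col, and LHY at 280.3 and 2318 in pifq, against 495 and 2578 in Col, low in replicate 1 and high in replicate 2 of both genotypes (limma adjusted p = 0.769 and 0.818 for pifq against Col). Over all tested genes, the replicates of pifq differed by at least 4-fold in 169 genes one way and 139 the other, and those of Col in 222 and 133.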
